A study of Homo sapiens and Mus musculus with 10 samples.

Results

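The comparison described here sets thapsigargin treatment directly against glucose deprivation in HEK293T, an established human embryonic kidney line. Its members are the transcripts with 50 or more reads in the higher of the TG and GD libraries, and 8918 of the 16120 transcripts of the table met that rule. The series holds 10 libraries, 7 of them from HEK293T. The TG cells received 300 nM thapsigargin for 6 h, the GD cells were kept without glucose for 24 h, and the mock cells of the same set serve as the baseline. All 3 are labelled WT and carry no other allele or agent in the labels. Each is 1 library, so agent and duration differ together between TG and GD and cannot be told apart, and a ratio between the 2 libraries has no replicate error. A genotype set, labelled WT or UFD1s-deficient, adds 1 GD and 1 mock library of each genotype and no TG library. The labels do not name the clone, the allele or separate cultures.

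Thapsigargin blocks SERCA, the pump that moves calcium into the endoplasmic reticulum (ER), so that the store empties and proteins fold poorly there. Unfolded protein is sensed by IRE1, which splices XBP1 mRNA, by PERK, which phosphorylates eIF2α and favours ATF4 translation, and by ATF6, which is cleaved in the Golgi. Glucose lack removes the fuel for glycolysis and the sugars for N-glycans, and is itself a known inducer of glucose-regulated ER chaperones.

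Counted reads came to 19024327 in TG, 12771607 in GD and 16990125 in mock, so after scaling TG had 1.52 times the depth of GD. Levels are given as CPM, reads scaled to library size with TMM factors, and ratios as log2 of TG over GD with a prior count of 5 reads. Ribosomal precursor RNA45SN5 took 8.31% of reads in TG, 10.7% in GD and 7.73% in mock. Of the 15 kidney epithelial markers listed, 11 were in the table and 5 had 50 or more reads (VIM, SIX2, KRT19, CDH2 and LHX1). The others present, CDH1, EPCAM, KRT8, KRT18, EYA1 and GATA3, had 8, 8, 0, 17, 26 and 0 reads in TG. Counts are per transcript row, and among ribosomal protein genes RPS10 had 0 reads in TG and RPS2 had 55463. A low count, here and below, may therefore not give the level of the gene, which was not tested. VIM alone held 11447 of the list's 18010 reads in TG. Neuronal-lineage markers, of which 10 of 12 were in the table, summed to 125 CPM in TG, 120.1 CPM in GD and 205 CPM in mock. Blood and endothelial markers summed to 41 reads in TG, 19 in GD and 41 in mock. In bulk RNA, fewer cells with a transcript and less of it per cell cannot be told apart.

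Promoters of 7 genes, picked among those with a match, show the elements that the ER, NF-kB and heat shock programmes are known to use. They are not the genes with the largest ratios throughout. Each stretch runs from 250 bases before to 50 bases after the RefSeq start site on GRCh38.p14, 5′ to 3′ on the gene's strand, and capitals mark the matched motif. XBP1 at chr22:28800520-28800819 (minus strand) and HSPA5 at chr9:125241294-125241593 (minus strand) hold the ER stress element, searched as CCAAT, any 9 bases and CCACG, and known to bind ATF6 and XBP1 protein. HERPUD1 at chr16:56931892-56932191 (plus strand) and SDF2L1 at chr22:21642052-21642351 (plus strand) hold ERSE-II, searched as ATTGG, any 1 base and CCACG. SGPP2 at chr2:222423738-222424037 (plus strand) and BIRC3 at chr11:102317234-102317533 (plus strand) hold a kB element, searched as GGG, any 2 bases and TTTCC. HSPA6 at chr1:161524290-161524589 (plus strand) holds a heat shock element, searched as GAA, any 2 bases, TTC, any 2 bases and GAA. Both strands were searched, and the matches in SDF2L1, BIRC3 and HSPA6 lie on the opposite strand.
XBP1: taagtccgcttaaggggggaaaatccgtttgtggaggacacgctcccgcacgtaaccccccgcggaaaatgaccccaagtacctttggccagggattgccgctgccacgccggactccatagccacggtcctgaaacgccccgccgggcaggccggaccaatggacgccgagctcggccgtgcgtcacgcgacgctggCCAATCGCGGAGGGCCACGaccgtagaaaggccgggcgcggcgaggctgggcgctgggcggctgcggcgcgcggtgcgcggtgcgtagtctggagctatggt
HSPA5: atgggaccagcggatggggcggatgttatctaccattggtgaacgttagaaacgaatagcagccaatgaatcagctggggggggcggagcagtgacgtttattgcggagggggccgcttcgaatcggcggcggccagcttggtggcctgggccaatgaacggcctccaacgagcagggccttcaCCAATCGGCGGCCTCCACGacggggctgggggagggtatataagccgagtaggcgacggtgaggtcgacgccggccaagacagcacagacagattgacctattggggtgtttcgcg
HERPUD1: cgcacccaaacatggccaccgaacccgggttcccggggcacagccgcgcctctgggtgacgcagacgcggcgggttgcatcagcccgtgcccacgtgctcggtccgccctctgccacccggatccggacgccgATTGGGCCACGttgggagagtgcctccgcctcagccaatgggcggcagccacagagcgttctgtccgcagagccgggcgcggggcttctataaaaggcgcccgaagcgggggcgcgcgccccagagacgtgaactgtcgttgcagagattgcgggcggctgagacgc
SDF2L1: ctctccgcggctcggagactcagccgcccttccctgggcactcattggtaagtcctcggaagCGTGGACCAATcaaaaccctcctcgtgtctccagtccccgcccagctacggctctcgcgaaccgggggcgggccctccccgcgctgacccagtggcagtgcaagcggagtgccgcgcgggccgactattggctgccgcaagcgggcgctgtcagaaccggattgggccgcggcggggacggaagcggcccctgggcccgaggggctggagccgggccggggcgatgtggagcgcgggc
SGPP2: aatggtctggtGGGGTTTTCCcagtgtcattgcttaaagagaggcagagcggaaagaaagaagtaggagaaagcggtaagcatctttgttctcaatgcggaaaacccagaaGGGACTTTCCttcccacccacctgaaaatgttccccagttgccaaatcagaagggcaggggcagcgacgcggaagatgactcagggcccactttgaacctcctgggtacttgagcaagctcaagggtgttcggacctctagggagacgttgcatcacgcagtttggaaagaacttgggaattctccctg
BIRC3: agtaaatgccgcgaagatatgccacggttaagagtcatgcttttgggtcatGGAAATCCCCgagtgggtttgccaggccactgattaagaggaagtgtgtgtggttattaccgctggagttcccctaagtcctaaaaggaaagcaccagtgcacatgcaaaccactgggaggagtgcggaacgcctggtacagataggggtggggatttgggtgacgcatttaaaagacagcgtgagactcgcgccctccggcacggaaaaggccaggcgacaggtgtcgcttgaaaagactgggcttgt
HSPA6: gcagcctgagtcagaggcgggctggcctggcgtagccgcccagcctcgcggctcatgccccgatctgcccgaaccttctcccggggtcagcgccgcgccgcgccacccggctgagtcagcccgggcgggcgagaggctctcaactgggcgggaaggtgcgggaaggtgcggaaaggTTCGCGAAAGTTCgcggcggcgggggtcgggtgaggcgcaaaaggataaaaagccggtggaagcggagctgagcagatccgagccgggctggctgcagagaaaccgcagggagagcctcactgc

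A promoter was found for 7098 of the 8918 members. The ER stress element was in 1.2% of promoters of transcripts 2-fold or more higher in TG (4 of 334, XBP1, FICD, SERP1 and HSPA5) and in none of the 256 of transcripts 2-fold or more lower in TG, beside 0.211% of all members and 0.0916% of all 27305 RefSeq promoters of the same length. Its 15 members with a match also included the chaperone genes CRELD2, HSP90B1, CANX and CALR, so 5 of 15 promoters of the ER chaperone list held it. ERSE-II was likewise in 1.2% of the promoters on the TG side (4 of 334, HERPUD1, SDF2L1, RAD9A and SHCBP1), none on the GD side, 0.155% of members and 0.0696% of all promoters. No member's promoter held both elements. The kB element was in 3.89% of promoters on the TG side (13 of 334) and 1.95% on the GD side (5 of 256), beside 2.56% of members and 2.33% of all promoters. Within the NF-kB list 4 of 9 promoters held it, those of BIRC3, NFKBIA, NFKB1 and REL. The heat shock element was in 0.299% of promoters on the TG side (1 of 334) and 0.391% on the GD side (1 of 256, HSPA6). It was in 0.394% of members and 0.608% of all promoters. Within the heat shock list 4 of 21 promoters held it, none of a gene past 2-fold. The amino acid response letters TTGCATCA were in 1.2% of promoters on the TG side (4 of 334) and in none on the GD side. Those 4 belong to LGI1, SGPP2, CHAC1 and HERPUD1. The same letters were in 0.634% of members and 1.08% of all promoters. The lysosomal CLEAR letters TCACGTGA were in 0.299% of promoters on the TG side (1 of 334) and in none of the 256 on the GD side. They were in 2.25% of members and 1.18% of all promoters, and in 3 of 16 promoters of the lysosome list. A match is a stretch of letters, and binding was not measured.

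Most transcripts, 8154 of 8918, differed by less than 2-fold between the stresses. Of the 8918 members, 408 (4.58%) were at least 2-fold higher in TG than in GD and 356 (3.99%) at least 2-fold lower, together 8.57%. The median log2 ratio was 0.04 and the 5th and 95th percentiles were −0.90 and 0.95. Ratios were above 0 for 4798 members and below 0 for 4120. At least 4-fold differences were seen for 58 transcripts higher in TG and 33 lower. A total of 7989 members had 50 or more reads in both libraries. A further 754 passed through TG alone and 175 through GD alone, which fixes their direction where they differ, and these supplied 201 of the 408 and 127 of the 356. At the edge of the rule, 9 of 41 transcripts with exactly 50 reads in the higher library and 1 of 26 with 49 reads were past 2-fold, with median log2 ratios of 0.20 and −0.13.

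A test came from edgeR's quasi-likelihood fit over all 7 HEK293T libraries, with library pair and treatment as terms, on the 10368 transcripts present in both HEK293T tables. It takes its spread from the mock and GD libraries, and the lone TG library is assumed to vary like them. The GD term is shared by the library pairs of both sets and genotypes, so each edgeR p refers to the fitted ratio. It does not test the 2-library fold printed beside it. The log2 ratio of HMOX1, for example, was −3.39 in the fit and −4.09 between the 2 libraries. At an adjusted p of 0.05 it called 476 transcripts (4.59%), 334 higher in TG (3.22%) and 142 lower (1.37%). The words rose and fell below are used of these calls only. Counts of listed genes below stand beside these shares, and beside 4.58% higher and 3.99% lower for the 2-fold rule. With 2 residual degrees of freedom the count depends on the fit. It was 115 in the 5 WT libraries alone (96 higher in TG and 19 lower) and 0 with treatment as the only term (1032 at an unadjusted p under 0.05), beside 548 with DESeq2. Without 1 library it was 1884 (stress-set GD left out), 3003 (stress-set mock), 118 (deficient mock) and 103 (deficient GD). CXCL10, TNF, HSPA6, HSPA1A and some other leading genes are in the stress table alone and have no test.

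**Figure D1:**
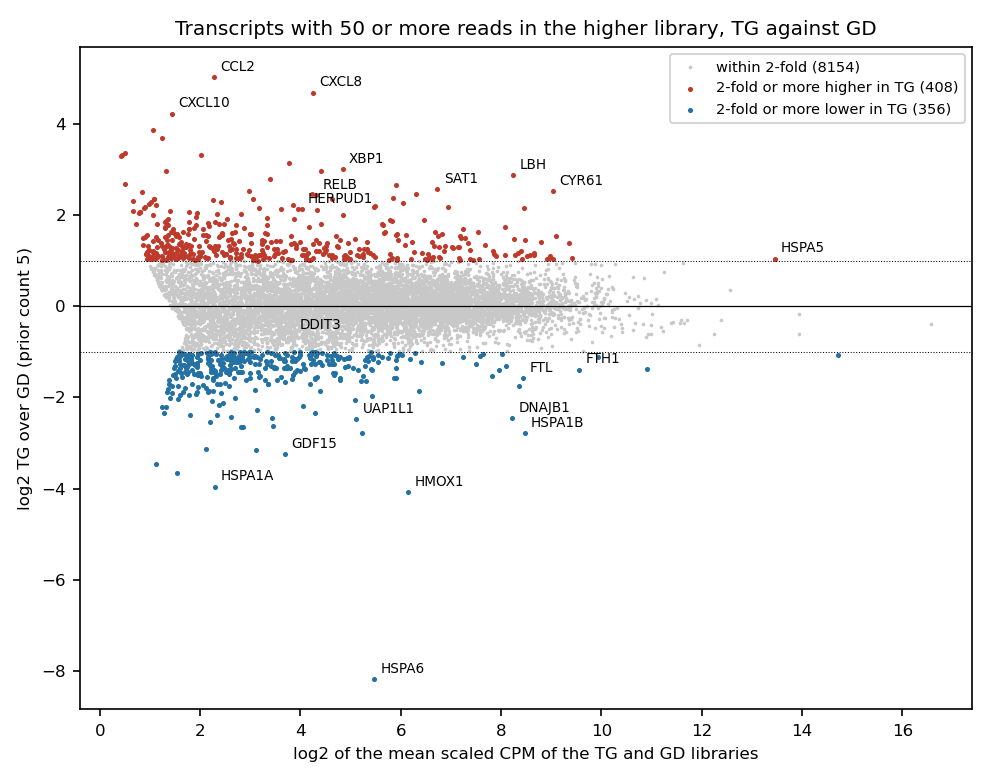
Each point is 1 of the 8918 transcripts, with the log2 of the mean scaled CPM of the TG and GD libraries on the x axis and log2 TG over GD on the y axis; dotted lines mark 2-fold. Red points are the 408 transcripts at least 2-fold higher in TG, blue points the 356 at least 2-fold lower, and HSPA6, with 0 reads in TG, lies lowest.

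The transcript row of XBP1, the transcription factor made by IRE1 splicing, had the largest ratio among the sensors and factors of the unfolded protein response. It is the RefSeq row NM_001079539.1, had 51.3 CPM in TG, 6.12 CPM in GD and 2.44 CPM in mock (956, 75 and 44 reads), and stood 8.37-fold (95% interval 6.61 to 10.7) higher in TG. Its edgeR log2 ratio was 2.94 (SE 0.353, edgeR adjusted p = 0.00475). Counts are per transcript row, so they do not measure splicing itself. DNAJC3, the ER co-chaperone that inhibits PERK, had 813 CPM in TG, 279 CPM in GD and 122 CPM in mock, 2.91-fold (95% interval 2.81 to 3.02) higher in TG (edgeR adjusted p = 0.00475). CREB3L2, an ATF6-like membrane-bound factor, had 559 CPM in TG, 249.96 CPM in GD and 179 CPM in mock (edgeR adjusted p = 0.00499). EIF2AK3, which encodes PERK, rose more moderately, with 284 CPM in TG, 169.8 CPM in GD and 65.3 CPM in mock (edgeR adjusted p = 0.0405).

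Other sensors lay closer together in TG and GD. ERN1, which encodes IRE1, had 49.004 CPM in TG, 49.6 CPM in GD and 16.1 CPM in mock, and ATF6 had 435 CPM in TG, 412 CPM in GD and 232 CPM in mock. Both stresses stood above mock by nearly the same amount, with edgeR adjusted p = 0.963 for ERN1 and 0.519 for ATF6. ATF4 itself had 17.6 CPM in TG, 10.1 CPM in GD and 9.299 CPM in mock, a log2 ratio of 0.78 (edgeR adjusted p = 0.123). DDIT3, the CHOP gene downstream of ATF4, was lower in TG than in GD at 11.3 CPM in TG, 17.7 CPM in GD and 0.221 CPM in mock, with a log2 ratio of −0.63 (edgeR adjusted p = 0.826) and 4 reads in mock. PPP1R15A, the GADD34 subunit that reverses eIF2α phosphorylation, was likewise near equal at 209 CPM in TG, 246 CPM in GD and 34.3 CPM in mock. The site proteases MBTPS1 and MBTPS2 had log2 ratios of −0.05 and −0.38. Of 15 listed sensors and factors with 50 or more reads, 3 were at least 2-fold higher in TG and none lower, with a median of 0.52 beside 0.04 over all members, and edgeR called 4 rises. The other ratios were 0.62 for CREB3, 0.52 for CREB3L1, 0.59 for PPP1R15B and −0.28 for EIF2AK4, the GCN2 kinase, and ATF6B, CREB3L4, EIF2AK1 and EIF2AK2 were under 50 reads in both libraries.

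ER lumen chaperones stood above mock under both stresses and further above it in TG. The list's median log2 ratio to mock was 2.31 in TG and 1.55 in GD, beside 0.66 and 0.72 for GD in the WT and deficient pairs of the genotype set. Directly compared, 7 of its 15 members were at least 2-fold higher in TG and none lower, with a median of 0.82, and edgeR called 6 rises and no fall among 14 tested. With 50 or more reads in both libraries there were 13 members, 6 of them at least 2-fold higher, with a median of 0.48. SDF2L1, a partner of the ER DnaJ proteins, had 91.7 CPM in TG, 30.5 CPM in GD and 7.69 CPM in mock, 3.003-fold (95% interval 2.68 to 3.37) higher in TG (edgeR adjusted p = 0.0137). DNAJB9, the ERdj4 co-chaperone, had 235 CPM in TG, 89.96 CPM in GD and 23.1 CPM in mock (edgeR adjusted p = 0.00475). DNAJB11, another ER DnaJ protein, had 322 CPM in TG, 145 CPM in GD and 49.3 CPM in mock (edgeR adjusted p = 0.0124). MANF, a secreted ER stress factor, had 428 CPM in TG, 196 CPM in GD and 50.7 CPM in mock (edgeR adjusted p = 0.0241). All 4 had the order TG, GD, mock.

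HSPA5, the BiP chaperone whose ER stress element is printed above, had 15096 CPM in TG, 7344 CPM in GD and 749 CPM in mock, 2.06-fold (95% interval 2.04 to 2.07) higher in TG (edgeR adjusted p = 0.0438). HSP90B1, the GRP94 chaperone, differed less, with 6831 CPM in TG, 5335 CPM in GD and 1378 CPM in mock (edgeR adjusted p = 0.185). Calreticulin and calnexin, the lectin chaperones of N-glycoproteins, lay closer together under both stresses. CALR had 2802 CPM in TG, 3625 CPM in GD and 1132 CPM in mock, a log2 ratio of −0.37 (edgeR adjusted p = 0.9), and CANX had 27.5 CPM in TG, 23.3 CPM in GD and 12.8 CPM in mock (edgeR adjusted p = 0.408). Among the genes named here whose promoters hold the ER stress element, log2 ratios ranged from −0.37 for CALR to 3.004 for XBP1. FICD, which modifies BiP by AMPylation, had 33.3 CPM in TG, 12.7 CPM in GD and 7.86 CPM in mock (edgeR adjusted p = 0.0185), and SERP1, an ER membrane stress protein, had 686 CPM in TG, 320.2 CPM in GD and 228 CPM in mock (edgeR adjusted p = 0.0111). CRELD2, an ER stress-induced secreted protein, sat at the read limit with 50 reads in TG, 17 in GD and 2 in mock. HSPA5, HSP90B1, CALR, CANX, FICD, SERP1 and CRELD2 were named after their values were seen.

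Disulfide isomerases and oxidases differed little, with 0 of 22 past 2-fold, a median of 0.24 and 3 edgeR rises. The largest ratio was that of the isomerase PDIA4, at 4156 CPM in TG, 2152 CPM in GD and 469.7 CPM in mock and a log2 ratio of 0.95 (edgeR adjusted p = 0.0645). The edgeR rises among the 5 named were TXNDC5, TXNDC11 and TXNDC15, with log2 ratios of 0.87, 0.78 and 0.72, and TMX2 had 0.84 (edgeR adjusted p = 0.0982).

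ER-associated degradation, which sends misfolded protein to the proteasome, had 4 of 19 members at least 2-fold higher in TG and none lower, a median of 0.30 and 7 edgeR rises. HERPUD1, a scaffold of the ubiquitin ligase complex, had 26.8 CPM in TG, 5.88 CPM in GD and 1.16 CPM in mock, 4.55-fold (95% interval 3.55 to 5.91) higher in TG (edgeR adjusted p = 0.0429). EDEM3, a mannosidase that marks glycoproteins for disposal, had 453 CPM in TG, 162 CPM in GD and 170.1 CPM in mock (edgeR adjusted p = 0.00229). DERL2, a Derlin of the same complex, had 155 CPM in TG, 63.02 CPM in GD and 49.3 CPM in mock (edgeR adjusted p = 0.00475). The levels of EDEM3 and DERL2 in GD were close to mock, whereas HERPUD1 in GD stood between TG and mock. SELENOK, a Derlin partner, and SEL1L, the ligase adaptor, had log2 ratios of 1.02 (edgeR adjusted p = 0.00578) and 0.91 (edgeR adjusted p = 0.0239). VCP, the p97 ATPase that extracts substrates, had 1167 CPM in TG, 613 CPM in GD and 803 CPM in mock (edgeR adjusted p = 0.00867).

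Transport between ER and Golgi had edgeR rises in TG. Of 33 COPII and ER-Golgi members, 4 were at least 2-fold higher (12.1%, beside 4.58% of all members) and none lower, with a median of 0.43 and 11 edgeR rises. PREB, the exchange factor that starts COPII coats, had 217 CPM in TG, 76.98 CPM in GD and 87.9 CPM in mock (edgeR adjusted p = 0.00164). SEC24D, a cargo adaptor of the inner coat, had 524 CPM in TG, 191 CPM in GD and 60.2 CPM in mock, 2.74-fold (95% interval 2.62 to 2.87) higher in TG (edgeR adjusted p = 0.0147). SEC31A of the outer coat had a log2 ratio of 1.31 (edgeR adjusted p = 0.0356), the GTPase ARF4 1.16 (edgeR adjusted p = 0.00529) and the SNARE BET1 0.99 (edgeR adjusted p = 0.0496). For PREB and ARF4, GD was slightly below mock. Translocon, signal peptidase and oligosaccharyltransferase genes had 1 of 26 past 2-fold (3.85%, near the 4.58% of all members), SRPRB, the membrane anchor of the signal recognition particle receptor, at 470.2 CPM in TG, 204 CPM in GD and 168 CPM in mock (edgeR adjusted p = 0.004). Their median was 0.16 with 6 edgeR rises, among them the channel subunit SEC61A1 at 0.92 (edgeR adjusted p = 0.0112) and SSR2 at 0.74 (edgeR adjusted p = 0.0224). SEC61B and SRP19 had 0.76 and 0.72, with edgeR adjusted p = 0.0657 and 0.226. N-glycan precursor genes had 2 of 20 higher in TG (10%, beside 4.58% of all members), GMPPB, which makes GDP-mannose, at 13.9 CPM in TG, 4.898 CPM in GD and 2.44 CPM in mock (edgeR adjusted p = 0.0411) and DOLPP1, which recycles dolichol, at 13.8 CPM in TG, 5.06 CPM in GD and 8.52 CPM in mock (edgeR adjusted p = 0.05004). DPAGT1, the first enzyme of the precursor and the target of tunicamycin, had a log2 ratio of 0.91 (edgeR adjusted p = 0.0137), while DPM1 and DPM2 had 0.82 and 0.801 and were not called.

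**Figure D2:**
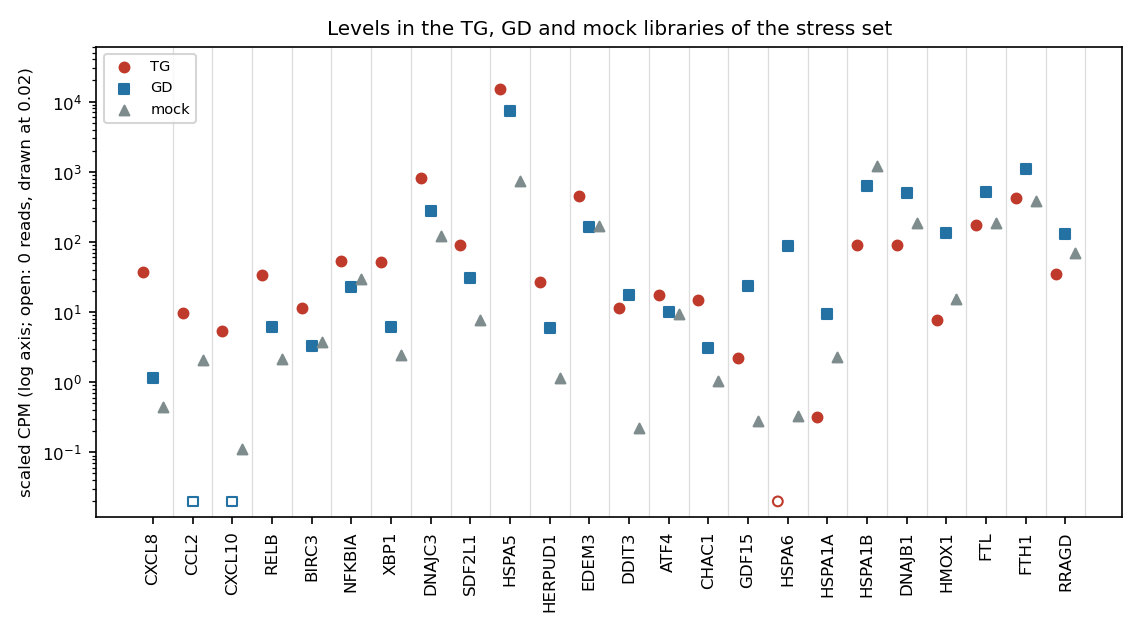
Scaled CPM on a log axis for 24 named transcripts in the TG, GD and mock libraries, 1 point a library; open symbols are 0 reads. The NF-kB and ER stress genes on the left have TG above GD, except DDIT3, and the genes from GDF15 rightwards have TG below GD.

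Calcium handling genes, which include the target of thapsigargin, showed small differences in both directions. Of 22 members none was at least 2-fold higher in TG and 3 were lower, with a median of −0.16, and edgeR called 2 rises and 2 falls. ATP2A2, which encodes the ubiquitous pump SERCA2, had 859.8 CPM in TG, 609.6 CPM in GD and 388 CPM in mock, a log2 ratio of 0.496 (edgeR adjusted p = 0.0483). ATP2A3 had 2 reads in TG and 0 in GD and mock. STC2, a secreted glycoprotein that limits store-operated calcium entry, had 211 CPM in TG, 111 CPM in GD and 32.7 CPM in mock (edgeR adjusted p = 0.0124). On the other side, RYR2, a calcium release channel, had 67.2 CPM in TG, 160.4 CPM in GD and 111 CPM in mock, 2.39-fold (95% interval 2.22 to 2.56) lower in TG (edgeR adjusted p = 0.0137). CAMLG, a tail-anchored protein receptor, fell as well with a log2 ratio of −0.88 (edgeR adjusted p = 0.0356). RCN3, an ER calcium-binding protein, and ORAI3, a plasma membrane calcium channel, were past 2-fold with log2 ratios of −1.33 and −1.11, on 60 and 102 reads in GD, and neither was called. RCN3, with 33 reads in TG, had 50 or more reads in GD only, so that its direction follows from the read rule.

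Among the other release and entry genes, ITPR2 had 0.32 and ITPR3 −0.56, the store sensor STIM1 −0.29 and the channel ORAI1 −0.02, and ITPR1, STIM2 and ORAI2 were under 50 reads. Of 9 calmodulin, calcineurin and NFAT genes 0 were past 2-fold. Their largest ratios were −0.66 for NFATC4 and 0.55 for the calcineurin subunit PPP3R1 (edgeR adjusted p = 0.0482), the list's 1 rise.

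Targets of the integrated stress response were above mock under both stresses, with list medians of 2.13 in TG and 1.59 in GD (1.38 and 1.11 for GD in the genotype set), and split when TG and GD were compared. Of 20 members, 3 were at least 2-fold higher in TG and 2 lower, the median was 0.46, and edgeR called 3 rises (CHAC1, SESN2 and STC2) and 1 fall (KLHL24), SESN2 and KLHL24 being named after their values were seen. Of the 14 with 50 or more reads in both libraries, 0 were past 2-fold. CHAC1, which degrades glutathione, had 14.9 CPM in TG, 3.102 CPM in GD and 1.05 CPM in mock, 4.79-fold (95% interval 3.402 to 6.91) higher in TG (edgeR adjusted p = 0.0137). CTH, which makes cysteine, had 7.93 CPM in TG, 2.53 CPM in GD and 0.553 CPM in mock (edgeR adjusted p = 0.1). RHBDD1, an ER rhomboid protease, had a log2 ratio of 1.18, with 4.07 CPM in TG, 1.63 CPM in GD and 4.096 CPM in mock. GDF15, a secreted stress cytokine, lay the other way with 2.198 CPM in TG, 23.5 CPM in GD and 0.277 CPM in mock, 10.7-fold (95% interval 7.69 to 15.2) lower in TG (edgeR adjusted p = 0.121). NUPR1, a stress-induced chromatin protein, had 38 reads in TG, 58 in GD and 4 in mock. In the genotype set GDF15 in GD stood above mock by 2.36 and 1.44, against 5.35 in the stress set, and its TG to GD difference of ratios to each set's mock was −0.31. GDF15 and NUPR1 in TG were still above mock, as DDIT3 was.

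Amino acid supply genes had smaller differences. Of 17 amino acid transporters 0 were past 2-fold, with a median of 0.40 and 1 edgeR rise, that of the arginine and lysine carrier SLC7A1 at 1331 CPM in TG, 715 CPM in GD and 395 CPM in mock (edgeR adjusted p = 0.0206). SLC7A11, the cystine importer, had 1175 CPM in TG, 750.3 CPM in GD and 138 CPM in mock, well above mock in both stresses (edgeR adjusted p = 0.0962). Serine, one-carbon and asparagine genes had 4 of 15 higher in TG and none lower, including PSPH, which completes serine synthesis, at 149 CPM in TG, 71.6 CPM in GD and 56.5 CPM in mock (edgeR adjusted p = 0.00714) and PYCR3 of proline synthesis at 32.9 CPM in TG, 12.98 CPM in GD and 24.9 CPM in mock (edgeR adjusted p = 0.0158). Of the 13 in that list with 50 or more reads in both libraries, 2 (PSPH and PYCR3) were at least 2-fold higher and none lower. Cytosolic aminoacyl-tRNA synthetases had 0 of 17 past 2-fold and 2 edgeR rises, MARS at a log2 ratio of 0.95 and FARSA at 0.66 (edgeR adjusted p = 0.0118 and 0.0483).

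Cytokine and NF-kB genes held the largest ratio on the TG side. Of 14 members with 50 or more reads, 7 were at least 2-fold higher in TG and none lower, with a median of 1.06. All 14 had a ratio above 0, beside 4798 of 8918 over the whole comparison. Of these, 5 (CXCL8, CCL2, CXCL10, BIRC3 and NFKB1) had 50 or more reads in TG only, so their direction follows from the read rule. Of the 9 with 50 or more reads in both libraries, 2 (RELB and NFKBIA) were at least 2-fold higher and none lower, with a median of 0.597. Their median ratio to mock was 1.24 in TG and 0.10 in GD. CXCL8, the neutrophil chemokine interleukin-8, had 687 reads in TG, 14 in GD and 8 in mock, which is 32.2-fold (95% interval 19.1 to 59.3) higher in TG and an edgeR log2 ratio of 4.76 (SE 0.425, edgeR adjusted p = 0.00173). CCL2, a monocyte chemokine, had 180, 0 and 37 reads in TG, GD and mock, at least 39.4-fold higher in TG taking 3 reads as the limit of a count of 0 (edgeR adjusted p = 0.0388). CXCL10, an interferon-induced chemokine, had 101, 0 and 2 reads, at least 22.1-fold higher. TNF, which is not on the list, had 51 reads in TG and 0 in the GD and mock libraries, at least 11.2-fold higher. The exact 95% lower bounds, which also take in the counting error of the TG reads, are 31.7 for CCL2, 17.7 for CXCL10 and 8.76 for TNF. All of these cover counting error only.

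RELB, a subunit of the non-canonical NF-kB dimer, had 33.8 CPM in TG, 6.04 CPM in GD and 2.16 CPM in mock, 5.6004-fold (95% interval 4.396 to 7.23) higher in TG (edgeR adjusted p = 0.0185). BIRC3, an inhibitor of apoptosis induced by NF-kB, had 11.4 CPM in TG, 3.27 CPM in GD and 3.76 CPM in mock (edgeR adjusted p = 0.216). NFKBIA, the IκBα inhibitor, had 54.2 CPM in TG, 22.4 CPM in GD and 29.5 CPM in mock (edgeR adjusted p = 0.0771), and NFKB1, the p50 precursor, had 53, 13 and 14 reads in TG, GD and mock. Relative to mock, BIRC3, NFKBIA and NFKB1 had log2 ratios of 1.53, 0.87 and 1.54 in TG and of −0.19, −0.39 and 0.34 in GD. Some genes off the list were also higher in TG than in GD and were picked after their values were seen. Their GD level was above mock for TNFRSF9 and SGPP2, near mock for PTGS2 and below mock for PTGER2. TNFRSF9, the receptor 4-1BB, had 46.2 CPM in TG, 11.3 CPM in GD and 2.27 CPM in mock (edgeR adjusted p = 0.0322). SGPP2, a sphingosine-1-phosphate phosphatase whose promoter above holds a pair of kB matches, had 31.9 CPM in TG, 5.55 CPM in GD and 3.27 CPM in mock (edgeR adjusted p = 0.00478). PTGS2, the inducible cyclooxygenase, had 8.26 CPM in TG, 1.796 CPM in GD and 1.55 CPM in mock (edgeR adjusted p = 0.0483), and its product's receptor gene PTGER2 had 13.7 CPM in TG, 2.12 CPM in GD and 4.705 CPM in mock (edgeR adjusted p = 0.00723).

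The choice of GD library matters for part of this list. In the genotype set, RELB stood above mock by 2.92 (log2) in WT GD and 2.01 in deficient GD, against 1.36 in the stress-set GD library and 3.79 in TG. BIRC3 stood above its mock by 1.55 and 0.99 in the 2 genotype-set GD libraries, against −0.19 in stress-set GD and 1.53 in TG. CXCL8 stood above mock by 1.47 and 2.001 there, against 0.95 in stress-set GD and 5.63 in TG. CCL2, at 0 reads in stress-set GD, had 8 and 22 reads in the WT and deficient GD libraries of the genotype set, and TG over the WT one was 3.37 (log2). With that WT GD library in place of the stress-set GD library the list's median was 0.43.

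Among 25 immediate early genes, 5 were at least 2-fold higher in TG and 1, JUND, lower, with a median of 0.07 and 3 edgeR rises. IER3, an early response gene that restrains apoptosis, had 103 CPM in TG, 16.2 CPM in GD and 29.6 CPM in mock, 6.37-fold (95% interval 5.499 to 7.41) higher in TG (edgeR adjusted p = 0.00716). NR4A2, an orphan nuclear receptor, had 20.1 CPM in TG, 4.33 CPM in GD and 5.81 CPM in mock (edgeR adjusted p = 0.0135), and JUNB, an AP-1 subunit, had 14.2 CPM in TG, 5.06 CPM in GD and 8.47 CPM in mock (edgeR adjusted p = 0.0136). For these 3, GD was below mock and TG above it. The matricellular genes CYR61 and CTGF, known targets of YAP and serum response factor, had 890.3 CPM in TG, 155 CPM in GD and 169 CPM in mock and 573 CPM in TG, 128 CPM in GD and 231 CPM in mock. Neither was called (edgeR adjusted p = 0.306 for CYR61 and 0.551 for CTGF). In the genotype set, GD stood above mock by 2.96 and 2.13 for CYR61 in the WT and deficient pairs, and by 2.39 and 1.66 for CTGF, and both ratios turn negative with the WT GD library of that set in place of the stress-set one (−0.78 for CYR61 and −1.39 for CTGF).

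The largest ratio on the GD side was that of HSPA6, a heat shock gene outside the heat shock list. HSPA6, an HSP70 gene that is silent without strong stress, had 0 reads in TG, 1082 in GD and 6 in mock, at least 549-fold lower in TG (exact 95% lower bound 446). HSPA1A had 6 reads in TG, 116 in GD and 42 in mock. HSPA1B had 89.6 CPM in TG, 619.6 CPM in GD and 1192 CPM in mock, 6.92-fold (95% interval 6.56 to 7.296) lower in TG, with both stresses below mock (edgeR adjusted p = 0.147). HSPA1A and HSPA1B are near-identical copies, so the division of reads between them is uncertain. DNAJB1, the HSP40 partner, had 91.5 CPM in TG, 505 CPM in GD and 184 CPM in mock, 5.52-fold (95% interval 5.24 to 5.83) lower in TG (edgeR adjusted p = 0.13).

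The genotype-set GD libraries shared the direction over mock for HSPA1B but not for DNAJB1, and HSPA6 and HSPA1A have no values there. DNAJB1 was below its mock there by log2 ratios of −1.18 in the WT and −0.91 in the deficient pair, against 1.46 in the stress-set pair. HSPA1B was below mock in every GD library, at −4.38 and −3.07 in the genotype set and −0.94 in the stress set. Of the 24 listed heat shock proteins, which do not include HSPA6, 3 were at least 2-fold lower in TG and 1 higher, with a median of −0.05. Their ratios were above 0 for 12 and below 0 for 12, and edgeR called no fall. Of the 21 with 50 or more reads in both libraries, 2 were at least 2-fold lower and 1 higher. The member on the TG side was HSPA14, a ribosome-associated HSP70, at 39.9 CPM in TG, 18.4 CPM in GD and 34.3 CPM in mock (edgeR adjusted p = 0.0828). The edgeR rise was that of the co-chaperone STIP1 at a log2 ratio of 0.62 (edgeR adjusted p = 0.031).

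Single antioxidant and iron genes were lower in TG. Of 13 NRF2 and ferritin genes, 3 were at least 2-fold lower in TG and none higher, 5 had a ratio above 0, the median was −0.35 and edgeR called 1 fall. HMOX1, the haem oxygenase, had 7.61 CPM in TG, 134 CPM in GD and 15.3 CPM in mock, 17.6-fold (95% interval 14.9 to 21.1) lower in TG (edgeR adjusted p = 0.0838). The ferritin light chain gene FTL had 175 CPM in TG, 522 CPM in GD and 186 CPM in mock (edgeR adjusted p = 0.0325) and the heavy chain gene FTH1 had 417 CPM in TG, 1093 CPM in GD and 379 CPM in mock (edgeR adjusted p = 0.0645). TG over mock was −0.98, −0.09 and 0.14 for HMOX1, FTL and FTH1, and stress-set GD was above mock in all 3. The genotype-set GD libraries had FTL above mock by 0.44 and 0.66 and FTH1 by 0.59 and 0.43, but HMOX1 at −0.77 and −0.08. OSGIN1 and SRXN1, further NRF2 targets, had log2 ratios of −0.92 and −0.76 and were not called.

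Lysosome and TFEB genes had 2 of 24 at least 2-fold lower in TG, none higher, a median of −0.20 and 4 edgeR falls. RRAGD, a Rag GTPase that places mTORC1 at the lysosome, had 35.4 CPM in TG, 129 CPM in GD and 69.1 CPM in mock, 3.65-fold (95% interval 3.33 to 4.01) lower in TG (edgeR adjusted p = 0.0293). FLCN, the folliculin partner of the Rag GTPases, had 19.7 CPM in TG, 43.2 CPM in GD and 24.9 CPM in mock (edgeR adjusted p = 0.037). RRAGC, another Rag GTPase gene, fell with a log2 ratio of −0.81 (edgeR adjusted p = 0.0395), and the protease gene TPP1 had −0.75 without a call. For FLCN and RRAGC, TG over mock was −0.34 and −0.099. ATP6V0D2, a subunit of the proton pump, had 21, 98 and 38 reads in TG, GD and mock. Autophagosome genes had 1 of 21 past 2-fold, ATG101, on 80 reads in TG and 22 in GD. Of the 17 with 50 or more reads in both libraries, 0 were past 2-fold.

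Metabolic lists differed in single genes more than as groups. Of 21 glucose transport and glycolysis genes, 1 was past 2-fold, the neuronal enolase gene ENO2 at 23.8 CPM in TG, 62.9 CPM in GD and 36.1 CPM in mock, 2.65-fold (95% interval 2.35 to 2.98) lower in TG (edgeR adjusted p = 0.0111). The hexokinase gene HK2 had a log2 ratio of 0.52 (edgeR adjusted p = 0.0438), the list's rise. ARRDC4, a target of the glucose-sensing factor MondoA, had 134 CPM in TG, 24.3 CPM in GD and 53.7 CPM in mock, 5.52-fold (95% interval 4.896 to 6.25) higher in TG (edgeR adjusted p = 0.00475). It was above mock in TG and below mock in GD, while its paralog ARRDC3 had a log2 ratio of −0.66 (edgeR adjusted p = 0.296). Hexosamine genes split between UAP1, which makes UDP-GlcNAc, at 433 CPM in TG, 219 CPM in GD and 188 CPM in mock (edgeR adjusted p = 0.0142) and its paralog UAP1L1 at 10.3 CPM in TG, 58.9 CPM in GD and 18.3 CPM in mock, 5.73-fold (95% interval 4.88 to 6.75) lower in TG (edgeR adjusted p = 0.0311). NANS of sialic acid synthesis rose with UAP1, at a log2 ratio of 0.99 (edgeR adjusted p = 0.0137).

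Cholesterol genes had 2 of 20 higher in TG (10%, beside 4.58% of all members) and 1 lower (5%, beside 3.99%). HMGCS1, an early enzyme of the pathway, had 8.79 CPM in TG, 2.29 CPM in GD and 6.09 CPM in mock (edgeR adjusted p = 0.128), HSD17B7 had a log2 ratio of 1.03 (edgeR adjusted p = 0.0335), and NPC2, which exports cholesterol from lysosomes, fell with −1.08 (edgeR adjusted p = 0.0274). Fatty acid synthesis genes had 1 of 13 past 2-fold in each direction, ACLY at 1.31 and FADS3 at −1.13, neither of them called. The desaturases SCD and FADS2 rose by less, 0.63 and 0.65, with TG below mock and GD further below it. PDK4, the kinase that shuts off pyruvate dehydrogenase, had 10.2 CPM in TG, 3.59 CPM in GD and 10.02 CPM in mock (edgeR adjusted p = 0.831) and was the 1 of 12 fatty acid oxidation genes past 2-fold. Respiratory chain genes had 1 of 62 past 2-fold, ATP5MC1, with a median of 0.15. No TCA cycle gene (of 18) or pentose phosphate gene (of 10) was past 2-fold. Mitochondrial chaperone genes had 3 of 18 higher in TG, including the import channel subunit TIMM17A at 187 CPM in TG, 76.8 CPM in GD and 98.5 CPM in mock (edgeR adjusted p = 0.00475) and GRPEL1 at a log2 ratio of 1.04 (edgeR adjusted p = 0.00984).

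**Figure D3:**
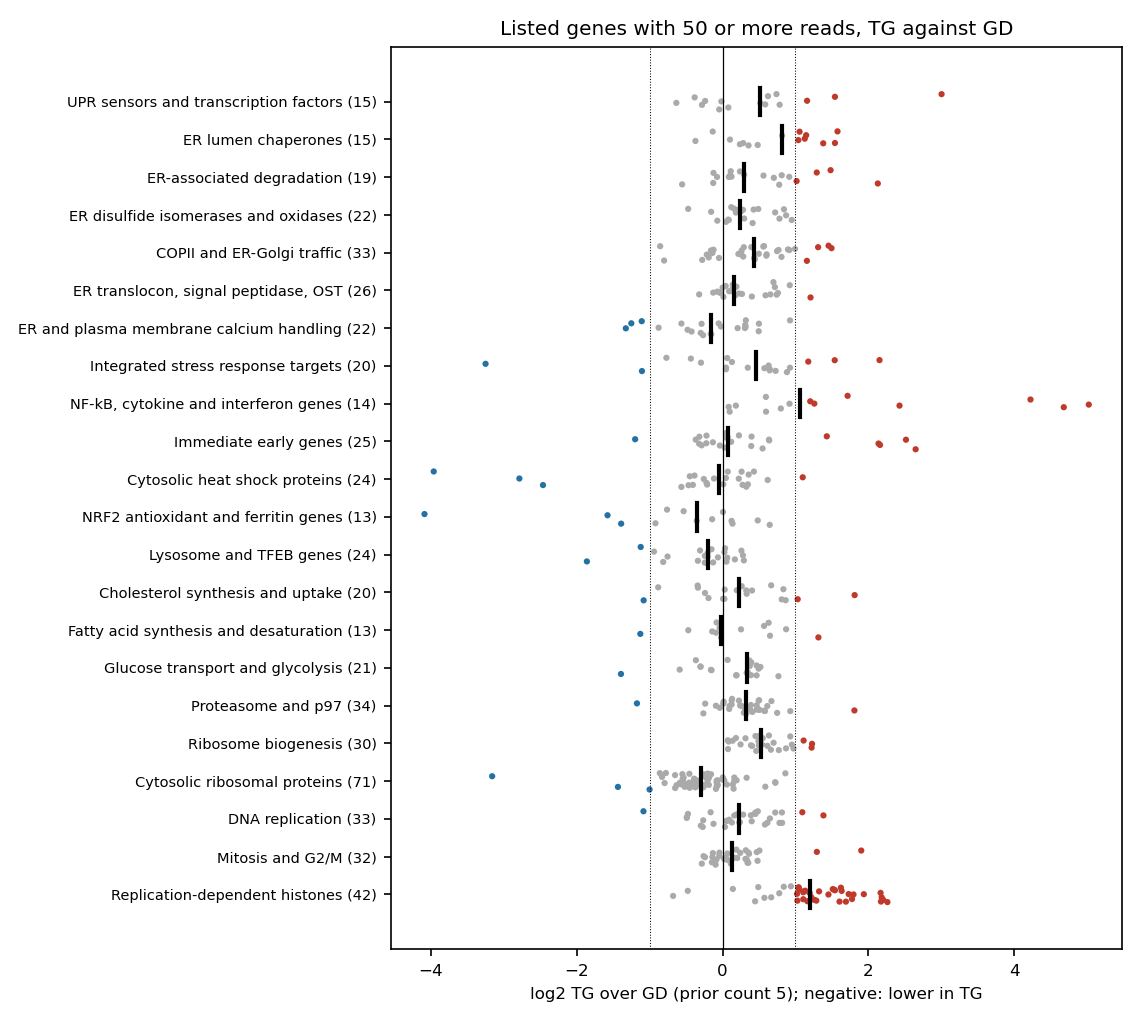
Log2 TG over GD of the listed transcripts with 50 or more reads, 1 point a transcript, for 22 lists with the number of members in brackets; thick bars are medians and dotted lines mark 2-fold. NF-kB genes (median 1.06), ER chaperones (0.82) and histones (1.20) lie to the right, and ribosomal protein genes (−0.30) to the left.

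Replication-dependent histone genes formed the largest group by count on the TG side. This group was added after the values were seen. Of 59 in the table, 42 had 50 or more reads, and 32 of these were at least 2-fold higher in TG and none lower, with a median of 1.20, while edgeR called 31 rises and no fall among 42. Of the 39 with 50 or more reads in both libraries, 29 were at least 2-fold higher and none lower, with a median of 1.16. The group summed to 9338 CPM in TG, 4272 CPM in GD and 6700.4 CPM in mock, so TG was above mock and GD below it. HIST1H3A had 203 CPM in TG, 44.5 CPM in GD and 155 CPM in mock, 4.56-fold (95% interval 4.17 to 5.002) higher in TG (edgeR adjusted p = 0.000534). HIST1H2AB had 109 CPM in TG, 22.4 CPM in GD and 87.7 CPM in mock (edgeR adjusted p = 0.00502), and HIST1H2AH had 74.04 CPM in TG, 15.8 CPM in GD and 72.4 CPM in mock (edgeR adjusted p = 0.00381). In HIST1H2AI, TG stood further above mock, with 72.1 CPM in TG, 15.8 CPM in GD and 35.8 CPM in mock (edgeR adjusted p = 0.0147). Histone genes are near-identical copies whose reads the counting could split, and their mRNAs lack poly(A) tails. The genotype-set GD libraries also had a group median below mock, −0.39 in the WT pair and −0.32 in the deficient pair, against −0.68 in the stress-set pair and 0.49 for TG over mock.

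Other growth genes differed less. For the signs given below, 4798 of all 8918 members had a ratio above 0 and 4120 below it. DNA replication genes had 2 of 33 higher in TG, 1 lower, a median of 0.23, 5 edgeR rises and 1 fall. The licensing factors split, CDC6 at 945 CPM in TG, 362 CPM in GD and 298 CPM in mock (edgeR adjusted p = 0.00229) and CDT1 at 123 CPM in TG, 262 CPM in GD and 104 CPM in mock (edgeR adjusted p = 0.0137). Over mock, CDC6 had log2 ratios of 1.66 in TG and 0.28 in GD, and CDT1 of 0.25 in TG and 1.33 in GD. Mitosis and G2/M genes had 2 of 32 past 2-fold, MKI67 on 175 reads in TG and 28 in GD and CDC25A on 124 and 31, with no edgeR call. Of the 29 with 50 or more reads in both libraries, 0 were past 2-fold. Ribosome biogenesis genes had a ratio above 0 in 30 of 30, a median of 0.53 and 3 past 2-fold (PPAN, DDX21 and UTP14A), with 1 edgeR rise. Cytosolic ribosomal protein genes lay the other way, with 58 of 71 below 0, a median of −0.30, 3 at least 2-fold lower in TG and 6 edgeR falls. RPS3 had 28, 194 and 58 reads in TG, GD and mock (edgeR adjusted p = 0.0122), few for a ribosomal protein, and RPL7A had 2808 CPM in TG, 5097 CPM in GD and 3737 CPM in mock (edgeR adjusted p = 0.0176). With the genotype-set WT GD library the medians were 0.25 for ribosome biogenesis and −0.24 for ribosomal proteins. Among genes with 50 or more reads in both libraries, 1 of 30 for DNA replication was at least 2-fold higher in TG and 1 lower. By the same count, 2 of 28 ribosome biogenesis genes were higher and none lower, and 2 of 68 ribosomal protein genes were lower and none higher.

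All 5 listed long noncoding RNAs (MALAT1, NEAT1, KCNQ1OT1, TUG1 and NORAD) had a TG over GD ratio below 0, with a median of −0.47. Of these, 2 (NEAT1 and MALAT1) were at least 2-fold lower in TG. The list's median log2 ratio to mock was 0.001 in TG and 0.37 in GD. NEAT1, the paraspeckle scaffold, had 1074 CPM in TG, 2793 CPM in GD and 1537 CPM in mock (edgeR adjusted p = 0.00714), and MALAT1 of nuclear speckles had 17527 CPM in TG, 36741 CPM in GD and 14094 CPM in mock (edgeR adjusted p = 0.0836). For both, GD stood above mock in the stress set and, by 0.64 and 0.34 for NEAT1 and 0.57 and 0.53 for MALAT1, in the genotype set. All transcripts with noncoding accessions made up 7.61% of members, 6.62% of those higher in TG and 18.8% of those lower in TG. Reads on them other than the ribosomal precursor were 5.49% of the total in TG, 7.98% in GD and 5.27% in mock, and the part of this share in the single ratios was not tested. Host genes of small nucleolar RNAs split, with SNHG11 at 1.42 (edgeR adjusted p = 0.0239) and SNHG7 at −1.52 (edgeR adjusted p = 0.129). SNHG7 had 36 reads in TG and 75 in GD, so that its direction follows from the read rule.

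Matrix and signalling genes were spread widely. Of 29 matrix genes, 5 were at least 2-fold higher in TG (THBS1, COL3A1, TGFBI, LOX and LUM) and 3 lower (LAMA5, COL5A1 and LAMB2), with a median of −0.39, 2 edgeR rises and 3 falls. COL3A1, TGFBI and LUM had 50 or more reads in TG only, so that their direction follows from the read rule. Of the 25 with 50 or more reads in both libraries, 2 were at least 2-fold higher and 3 lower, with a median of −0.40. THBS1, thrombospondin 1, had 96.6 CPM in TG, 18.4 CPM in GD and 20.3 CPM in mock, 5.26-fold (95% interval 4.58 to 6.07) higher in TG (edgeR adjusted p = 0.01). COL3A1 had 12.2 CPM in TG, 3.84 CPM in GD and 11.5 CPM in mock (edgeR adjusted p = 0.0327), so its GD level alone was low. COL5A1 fell, with 158 CPM in TG, 392 CPM in GD and 355 CPM in mock (edgeR adjusted p = 0.0312), as did the laminin gene LAMA5 at a log2 ratio of −1.37 (edgeR adjusted p = 0.0209). Notch, Wnt and IGF genes had 3 of 23 lower in TG (13.04%, beside 3.99% of all members), none higher, and 4 edgeR falls. NOTCH3 had 6.17 CPM in TG, 32.7 CPM in GD and 43.8 CPM in mock (edgeR adjusted p = 0.0984), its ligand gene DLL1 7.61 CPM in TG, 20.1 CPM in GD and 20.98 CPM in mock (edgeR adjusted p = 0.0375) and NOTCH1 a log2 ratio of −0.94 (edgeR adjusted p = 0.0248). NOTCH3 was lower in the genotype-set GD libraries than in mock too, at log2 ratios of −2.58 and −2.05, against −0.42 in the stress-set pair. VIM, the intermediate filament vimentin, fell with 614 CPM in TG, 1331 CPM in GD and 791 CPM in mock (edgeR adjusted p = 0.0274).

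Further leading genes are given here by their own values. LBH, a transcriptional cofactor, had 531 CPM in TG, 71.9996 CPM in GD and 99.1 CPM in mock, 7.38-fold (95% interval 6.89 to 7.92) higher in TG with an edgeR log2 ratio of 2.89 (SE 0.2003, edgeR adjusted p = 0.000534). SAT1, which acetylates polyamines for breakdown, had 182 CPM in TG, 30.5 CPM in GD and 9.85 CPM in mock, 5.97-fold (95% interval 5.36 to 6.66) higher in TG, with an edgeR log2 ratio of 2.72 (SE 0.202, edgeR adjusted p = 0.000543). It was the 1 of 12 polyamine genes past 2-fold. FAM222A had 24.7 CPM in TG, 2.53 CPM in GD and 6.31 CPM in mock (edgeR adjusted p = 0.00714). BCLAF1, a splicing-associated factor, had 37.8 CPM in TG, 4.57 CPM in GD and 23.5 CPM in mock on its listed transcript row, so that GD alone was low (edgeR adjusted p = 0.0411).

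Low-count transcripts among the 15 highest ratios follow, all with 50 or more reads in TG only, so that their direction is set by how they were chosen. CGA, the shared subunit of glycoprotein hormones, had 78, 0 and 8 reads in TG, GD and mock, at least 17.1-fold higher in TG. CD69, a lymphocyte activation antigen, had 53 reads in TG and 0 in GD and mock, at least 11.6-fold higher. LGI1, a secreted neuronal protein, had 50, 0 and 19 reads, at least 10.9-fold higher. The exact 95% lower bounds are 13.6 for CGA, 9.11 for CD69 and 8.58 for LGI1. CD69 was listed in TG alone, whereas LGI1 and CGA also had mock reads. DAW1, a dynein assembly factor, had 87, 1 and 6 reads, 57.1-fold (95% interval 9.99 to 2283) higher in TG. The potassium channel gene KCNA1 had 142, 6 and 6 reads, C2CD4A 87, 4 and 5, and the myelin gene PMP22 50, 2 and 10. PMP22 was the 1 of these 7 with a test (edgeR adjusted p = 0.0339).

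On the GD side, TMEM37 had 0.643 CPM in TG, 8.08 CPM in GD and 9.13 CPM in mock, so that TG alone was low (edgeR adjusted p = 0.0206). UNC13D, a vesicle-priming factor, had 2, 52 and 28 reads in TG, GD and mock, 39.6-fold (95% interval 10.4 to 336) lower in TG (edgeR adjusted p = 0.0369). DMGDH, a mitochondrial choline-pathway enzyme, had 3, 69 and 2 reads, 35.02-fold (95% interval 11.5 to 174) lower. Others had a higher GD over mock in the stress set than in the genotype set. The axonemal dynein gene DNAH17 had 9.28 CPM in TG, 65.8 CPM in GD and 5.26 CPM in mock, the matricellular gene NOV 1.72 CPM in TG, 12.4 CPM in GD and 2.49 CPM in mock and the ferritin receptor gene SCARA5 2.84 CPM in TG, 19.02 CPM in GD and 6.53 CPM in mock, with edgeR adjusted p = 0.158, 0.141 and 0.0873. For these 3 GD was above mock in the stress set by 3.57, 2.18 and 1.499, against 0.27, −0.74 and −0.198 in the WT pair and 0.58, 0.52 and −0.97 in the deficient pair of the genotype set.

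Read against mock, the named genes had a few arrangements. XBP1 stood above mock by 4.23 in TG and 1.23 in GD, HERPUD1 by 4.204 and 2.07, and HSPA5 by 4.33 and 3.29, so that both stresses were above mock. LBH, at 2.42 in TG and −0.46 in GD, and ARRDC4, at 1.32 and −1.13, were above mock in TG alone. DNAJB1, at −1.004 and 1.46, UAP1L1, at −0.81 and 1.67, and RRAGD, at −0.96 and 0.903, were below mock in TG and above it in GD. DDIT3 stood 4.46 above mock in TG and 5.09 in GD. These ratios share the mock library, so they are not independent of each other. Set against the WT GD library of the genotype set, TG had 513 of 8983 transcripts at least 2-fold higher (5.71%) and 822 lower (9.15%), together 14.9%. Of the transcripts past 2-fold in the stress set and present in both tables, 139 of the 380 higher and 130 of the 348 lower in TG were also past 2-fold in that direction there. As a difference of the log2 ratios to the mock library of each set, 498 of 8856 were higher (5.62%) and 197 lower (2.22%), together 7.85%, and 175 of the 380 and 92 of the 348 were past 2-fold in the same direction. These comparisons share the TG library.

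**Figure D4:**
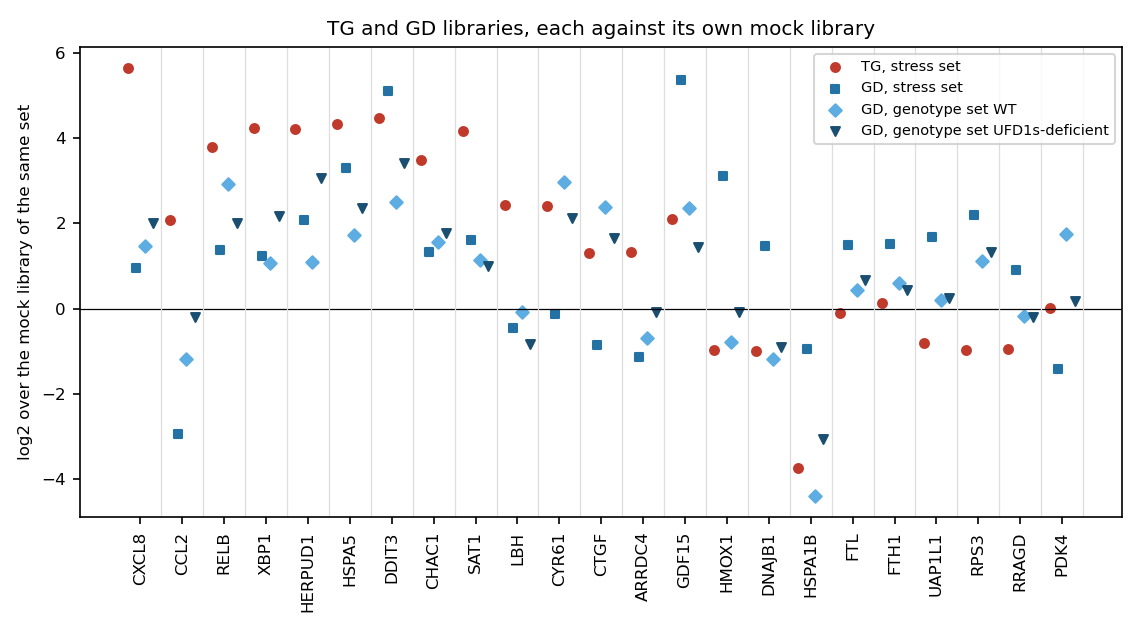
Log2 ratio to the mock library of the same set for 23 named transcripts, with the TG and GD libraries of the stress set and the WT and UFD1s-deficient GD libraries of the genotype set, 1 point a library. The 3 GD points lie close together for SAT1 (0.99 to 1.602), and apart for CYR61, CTGF, HMOX1, DNAJB1 and PDK4.

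Transcripts at least 2-fold higher in TG were shorter in the median than all members. The median length was 2562 bases for transcripts at least 2-fold higher in TG, 3312 bases for those at least 2-fold lower and 3229 bases for all members, of which 96.1% had a length. In the shortest decile 8.16% were at least 2-fold higher in TG and 3.497% lower, and in the longest decile 1.17% were higher and 4.196% lower. The median ratio was 0.14 in the shortest decile and −0.06 in the longest. Median GC content was 49.6% on the TG side, 52.3% on the GD side and 48.3% for all members. In the decile with the highest GC content 4.66% were higher in TG and 7.11% lower. The part of length and GC content in the single ratios was not tested.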

How the data were processed

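Total RNA from HEK293T cells was taken up in TRIzol and sequenced from libraries made with a TruSeq Ribo Profile kit, per the labels' protocols. The values are whole-number read counts per RefSeq transcript, not normalized, as deposited by the authors. Tools listed in the submitters' processing notes are Bowtie2, cutadapt, bedtools and FastQC, and the same notes list hg19 and mm10 as builds. How reads were assigned to transcripts, and with which strand setting, is not given in the sources used here, so reads of overlapping and antisense genes cannot be told apart.

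Counts were scaled with TMM factors (edgeR 4.0.16, limma 3.58.1, R 4.3.3) and tabulated with Python 3.11.15, pandas 2.3.3 and SciPy 1.17.1. Log2 ratios used a prior count of 5 reads, and folds have exact conditional 95% intervals on the reads of 2 libraries. A count of 0 was bounded at 3 reads per library. Intervals and bounds cover counting error only. The edgeR quasi-likelihood test ran on 7 HEK293T libraries with a common dispersion of 0.0192 and Benjamini-Hochberg adjustment over all transcripts tested. It was also run on simulated counts, drawn with that common dispersion and with no effect of set or genotype. The real libraries may differ in both, so the simulation does not bear on the calls here. DESeq2 1.42.0, other scalings, read minimums, folds, priors, library subsets and the genotype-set GD library were alternatives. The labels do not say that libraries came from separate cultures, so p-values measure the spread between these libraries, which may be technical.

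Members and the 45 gene lists were chosen with earlier results of these data known. Named genes are the 15 highest and 15 lowest log2 ratios, leaving out small RNA, histone, uncharacterised and pseudogene names, up to 5 genes per list, and all unfolded protein response sensors and ATP2A, ITPR, STIM and ORAI genes. HSPA5, HSP90B1, CALR, CANX, CRELD2, FICD, SERP1, NFKBIA, NFKB1, TNFRSF9, SGPP2, PTGS2, PTGER2, SESN2, KLHL24, JUND, LUM, LAMB2, RAD9A, SHCBP1, the histones and GLRX, MPV17L2, TCIM, PIP5K1B, FOXQ1, MN1 and RAB3IL1 were named after their values were seen. Promoters are from RefSeq on GRCh38.p14, another build than the files', matched by symbol for 7098 members (79.6%). The N2a libraries were not used here.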

Additional observations from a re-analysis of the deposited data

Results flagged for a closer look

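For 7 of the named genes that were past 2-fold between TG and GD, GD over mock was also past 2-fold in the stress set and had the opposite sign, of any size, in both pairs of the genotype set. This difference was not tested. HMOX1 had a log2 ratio of 3.11 in the stress set, against −0.77 in the WT and −0.08 in the deficient pair of the genotype set. DNAJB1 had 1.46 in the stress set, against −1.18 and −0.91 in those pairs. UNC13D had 1.29, against −0.15 and −0.26. SCARA5 had 1.499, against −0.198 and −0.97. HES4, a Notch target, had 1.33, against −0.54 and −0.29. Below mock in the stress set were PDK4 at −1.41, against 1.75 and 0.19, and ATP5MC1 at −2.01, against 0.61 and 0.297.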

How the results depend on the processing

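Each TG to GD ratio rests on 1 library a side and has no replicate error, and depth limits the transcripts near 50 reads. Of transcripts at least 2-fold higher in TG (408 at 50 reads), there were 626 at 20 or more reads, 212 at 200 or more, 1006 with no read minimum, 58 at 4-fold, 198 with the interval bound past 2-fold and 207 with 50 or more reads in both libraries, an alternative chosen after seeing the data. Of those at least 2-fold lower (356), there were 594, 138, 1173, 33, 168 and 229 under the same alternatives, 822 against the genotype-set WT GD library and 197 as a difference of ratios to the mock of each set. RLE scaling, library totals, scaling without RNA45SN5 and a prior count of 1 kept all 42 list medians within the 95% rank interval over the list's own members, and the genotype-set GD library moved 13 of them out of it and the difference of ratios 11. Of the named genes' ratios, 197 left their counting interval with the genotype-set GD library (51 stayed within it) and 191 as a difference of ratios (54 stayed). The 476 edgeR calls were 455 with RLE factors, 346 with library totals, 476 with no filter and 548 with DESeq2 (434 of them shared), 115 in the 5 WT libraries, 0 with treatment as the only term and between 103 and 3003 without 1 library. The 476 calls rest on the pair term, which joins the libraries of 1 set and genotype. No paired analysis by replicate was run, since the labels give no replicate numbers. Log2 ratios of named genes turned round with the genotype-set WT GD library: DNAH17 0.078, HSPA1B 0.44, DNAJB1 0.51, PYCR3 −0.14, CYR61 −0.78, CTGF −1.39, PDK4 −1.84, ATP5MC1 −0.029, ATG101 −2.3005, POLD3 −0.47, TGFBI −0.16, RPS29 0.12 and HIST1H2AH −0.072. They turned round as a difference of ratios to mock for DNAH17 0.51, HSPA1B 0.65, NOV 0.27, DNAJB1 0.17, RCN3 0.15, ORAI3 0.044, CYR61 −0.57, CTGF −1.08, BIRC3 −0.038, PDK4 −1.73, ATP5MC1 −0.93, PSMA1 0.102, PPAN −0.299, TGFBI −0.296, HES4 0.78 and RPS29 0.33. The cause was not tested.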

Other observations

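Genes of growth arrest and cell death differed little between the stresses. Of 11 p53 targets with 50 or more reads, 1 was at least 2-fold higher in TG and none lower, with a median log2 ratio of 0.32 beside 0.04 over all members. It was TIGAR, a phosphatase that lowers glycolytic flux, at 128 CPM in TG, 60.7 CPM in GD and 115 CPM in mock (edgeR adjusted p = 0.00475), so GD was below mock and TG close to it. Of 7 apoptosis regulators, the ubiquitin ligase gene BIRC2 was higher in TG on 123 reads in TG and 30 in GD (edgeR adjusted p = 0.129) and the BH3-only gene HRK lower on 28 and 51 reads (edgeR adjusted p = 0.248), and edgeR called none. Of the 5 with 50 or more reads in both libraries, 0 were past 2-fold. PMAIP1, the BH3-only gene NOXA, had 353 CPM in TG, 228 CPM in GD and 229 CPM in mock (edgeR adjusted p = 0.124). Of 34 proteasome and p97 genes, 29 had a ratio above 0, with a median of 0.32, 1 past 2-fold in each direction and 2 edgeR rises. Those were VCP and the lid subunit gene PSMD11, the member past 2-fold at 153 reads in TG, 26 in GD and 118 in mock (edgeR adjusted p = 0.0411). PSMA1, on the other side, had 38, 61 and 28 reads. Of the 32 proteasome and p97 genes with 50 or more reads in both libraries, 0 were past 2-fold. Of 18 hypoxia-responsive genes, the lysyl oxidase gene LOX alone was past 2-fold, at 9.704 CPM in TG, 4.41 CPM in GD and 3.38 CPM in mock (edgeR adjusted p = 0.0575), and the list's median was 0.04.

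Some further genes outside the lists were tested and are named after their values were seen. GLRX, a glutaredoxin that reduces protein-glutathione disulfides, had 23.9 CPM in TG, 4.898 CPM in GD and 8.47 CPM in mock (edgeR adjusted p = 0.00475). TCIM had 41.5 CPM in TG, 7.84 CPM in GD and 6.86 CPM in mock (edgeR adjusted p = 0.0223), with GD near mock. MPV17L2, a mitochondrial membrane protein, had 32.8 CPM in TG, 7.35 CPM in GD and 12.8 CPM in mock (edgeR adjusted p = 0.0051), and the phosphoinositide kinase gene PIP5K1B had 152 reads in TG, 17 in GD and 52 in mock (edgeR adjusted p = 0.031). For GLRX, MPV17L2 and PIP5K1B, TG was above mock and GD below it. On the GD side, the forkhead gene FOXQ1 had 3.11 CPM in TG, 18.4 CPM in GD and 10.9 CPM in mock (edgeR adjusted p = 0.0147) and MN1, a transcriptional coregulator, 17.4 CPM in TG, 69.1 CPM in GD and 56.1 CPM in mock (edgeR adjusted p = 0.0114), and in both TG was below mock. RAB3IL1, an exchange factor for Rab GTPases, had 2.79 CPM in TG, 14.7 CPM in GD and 2.99 CPM in mock (edgeR adjusted p = 0.02), with TG near mock. Of promoters holding ERSE-II, that of SHCBP1 belongs to a gene at 185 CPM in TG, 75.02 CPM in GD and 88.4 CPM in mock (edgeR adjusted p = 0.00716) and that of RAD9A to one at 8.79 CPM in TG, 3.02 CPM in GD and 2.32 CPM in mock (edgeR adjusted p = 0.0575).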
